A study of Mus musculus with 10 samples.

Results

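The genes described here carry subunit symbols of the constitutive proteasome, the main protease complex of the cytosol and nucleus. They were chosen by symbol, as all genes named Psma, Psmb, Psmc or Psmd with a number, without the immunoproteasome genes Psmb8, Psmb9 and Psmb10, and with a row of the table that names the gene alone. This gave 35 of the 30184 genes that have such a row, 15 of the core particle and 20 of the regulatory particle, with 1 row for each gene. Among them are the assembly chaperones Psmd5, Psmd9 and Psmd10, the germ cell form Psma8 and the thymus form Psmb11. All 35 are called subunit or proteasome genes below. Pancreatic islets of male C57BL/6 mice (C57Bl/6J in the study's methods) aged 10 weeks were freed by collagenase digestion, picked by hand and held in culture, for 24 h by one label field and overnight by another, before total RNA was hybridised to 1 array per sample. The ZT20 group was 5 islet samples at Zeitgeber time 20 h, in the dark phase, and the ZT8 group was 5 samples at 8 h, in the light phase. Zeitgeber time counts the hours since lights on, and the sample titles give the same times as CT20 and CT8. Per the study's methods, the ZT20 mice had been housed on an inverted light cycle, so the Zeitgeber time and the housing cannot be told apart. The labels name no transgene or treatment, each sample is a numbered biological replicate, and the question was whether expression in islets differs between the phases.

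The core particle is a barrel whose outer rings are made of alpha subunits, which gate the entry, and whose inner rings are made of beta subunits, some of which cut proteins. The regulatory particle caps the barrel, where non-ATPase subunits bind and strip ubiquitin chains and a ring of ATPases unfolds the protein and feeds it into the barrel. Cells are known to adjust these genes together through the transcription factor Nfe2l1, and islet beta cells, which make large amounts of secreted protein, depend on the proteasome to clear misfolded proteins from the endoplasmic reticulum.

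The promoters of these genes were searched for sequence motifs that the family is known for, and matches were about as frequent as over all genes. RefSeq windows from 250 bases before to 50 after the start (build GRCm38.p6) were matched by symbol for 28 of the 35 genes. Both strands were searched for TGACNNNGC, the core of the antioxidant response element bound by Nfe2l1, and for CCAAT, the box bound by NF-Y, and no proteasome gene's window held both. The windows below belong to the genes with the lowest difference among the alpha subunits, the ATPases and the non-ATPases, and to a catalytic subunit with the response element close to its start. Capitals mark a match of either motif on either strand.
Psma1, chr7:114276067-114276366, minus strand: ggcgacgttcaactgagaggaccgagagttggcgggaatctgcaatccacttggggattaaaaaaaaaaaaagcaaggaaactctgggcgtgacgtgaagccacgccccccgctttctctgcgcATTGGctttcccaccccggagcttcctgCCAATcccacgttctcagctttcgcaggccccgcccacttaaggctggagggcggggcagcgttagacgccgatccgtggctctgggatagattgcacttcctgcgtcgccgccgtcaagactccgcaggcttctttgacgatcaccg
Psmc6, chr14:45329574-45329873, plus strand: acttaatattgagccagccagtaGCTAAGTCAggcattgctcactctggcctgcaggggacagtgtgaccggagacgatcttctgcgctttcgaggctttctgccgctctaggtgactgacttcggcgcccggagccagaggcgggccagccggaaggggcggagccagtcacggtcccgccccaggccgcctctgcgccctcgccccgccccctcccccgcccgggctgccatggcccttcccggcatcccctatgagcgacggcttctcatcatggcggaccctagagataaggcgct
Psmd10, chrX:140956662-140956961, minus strand: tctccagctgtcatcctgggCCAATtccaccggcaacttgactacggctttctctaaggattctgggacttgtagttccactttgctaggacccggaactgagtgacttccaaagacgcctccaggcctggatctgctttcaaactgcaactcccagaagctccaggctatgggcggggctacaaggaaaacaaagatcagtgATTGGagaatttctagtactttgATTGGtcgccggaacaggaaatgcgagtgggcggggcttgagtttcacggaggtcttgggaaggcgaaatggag
Psmb6, chr11:70525107-70525406, plus strand: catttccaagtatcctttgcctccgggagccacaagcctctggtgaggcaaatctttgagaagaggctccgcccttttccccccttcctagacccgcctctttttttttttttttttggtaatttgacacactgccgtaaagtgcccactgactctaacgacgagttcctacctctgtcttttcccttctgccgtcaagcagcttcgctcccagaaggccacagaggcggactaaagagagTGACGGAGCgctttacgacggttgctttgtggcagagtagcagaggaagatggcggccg

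The Psmb6 window held the response element core 9 bases before the start, and the Psmc6 window held it 227 bases before, on the opposite strand. CCAAT matches stood 126 and 98 bases before the start of Psma1, and 230, 47 and 24 bases before that of Psmd10. The response element core was found in 4 of 28 proteasome genes (14.3%), those of Psmb6, Psmc6, Psmd9 and Psmd12, and in 14.0% of 27025 genes with a window. CCAAT was found in 12 of 28 (42.9%) and in 41.1% of all genes. Both shares lay close to those over all genes, and a match is a description of the sequence only.

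Transcript levels of the constitutive proteasome differed little between ZT20 and ZT8 islets. None of the 35 genes passed the test at an adjusted p under 0.05 (limma, Benjamini-Hochberg adjustment over 32814 rows), where 0.177% of all rows were called higher and 0.567% lower at ZT20. The adjusted p-values ran from 0.246 for Psmb11 to 0.996 for Psma7 (limma). At an unadjusted p under 0.05, 3 genes lay lower at ZT20 (Psma1, Psmc6 and Psmd10), against 8.37% of all rows, and 1 lay higher (Psmb11), against 10.2% of all rows. Against all rows, these counts are close to the background for the lower side and below it for the higher side. The 16407 rows with a mean signal above the median level are a closer reference. Fitted alone, 2373 of them were lower and 897 higher at this cut. Of the 33 subunit genes among them, 4 were lower and 0 higher. No gene had groups that did not overlap, which 5.92% of all rows had.

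The differences were given as log2 signal at ZT20 minus log2 signal at ZT8. They ran from -0.14 for Psma1 to 0.15 for Psmb11, with a median of -0.04 over the 35 genes. They lay below 0 for 24 genes and above 0 for 11. Over all rows tested, 38.1% lay below 0 and the median was 0.03, and over the rows above the median level, among which 33 of the 35 genes belong by their signal, 54.8% lay below 0 with a median of -0.01. The sign of the median depended on the scaling. When every array was centred at its own median, the median difference was -0.09 with 33 of 35 below 0, while that of all rows was -0.02. After quantile normalization it was 0.03 with 9 of 35 below 0, while that of all rows was 0.01.

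As deposited, the intervals were narrow, and they leave out the shifts between scalings given above. The 95% confidence interval of the difference lay within 1.3-fold in either direction for 35 of 35 genes and within 1.2-fold for 33, and it held 0 for 31. The lowest bound was -0.27, for Psma1, and the highest was 0.30, for Psmb11. In whole islets, fewer cells of a type and less RNA per cell cannot be told apart, and the p-values measure the spread between these 10 samples.

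**Figure D1:**
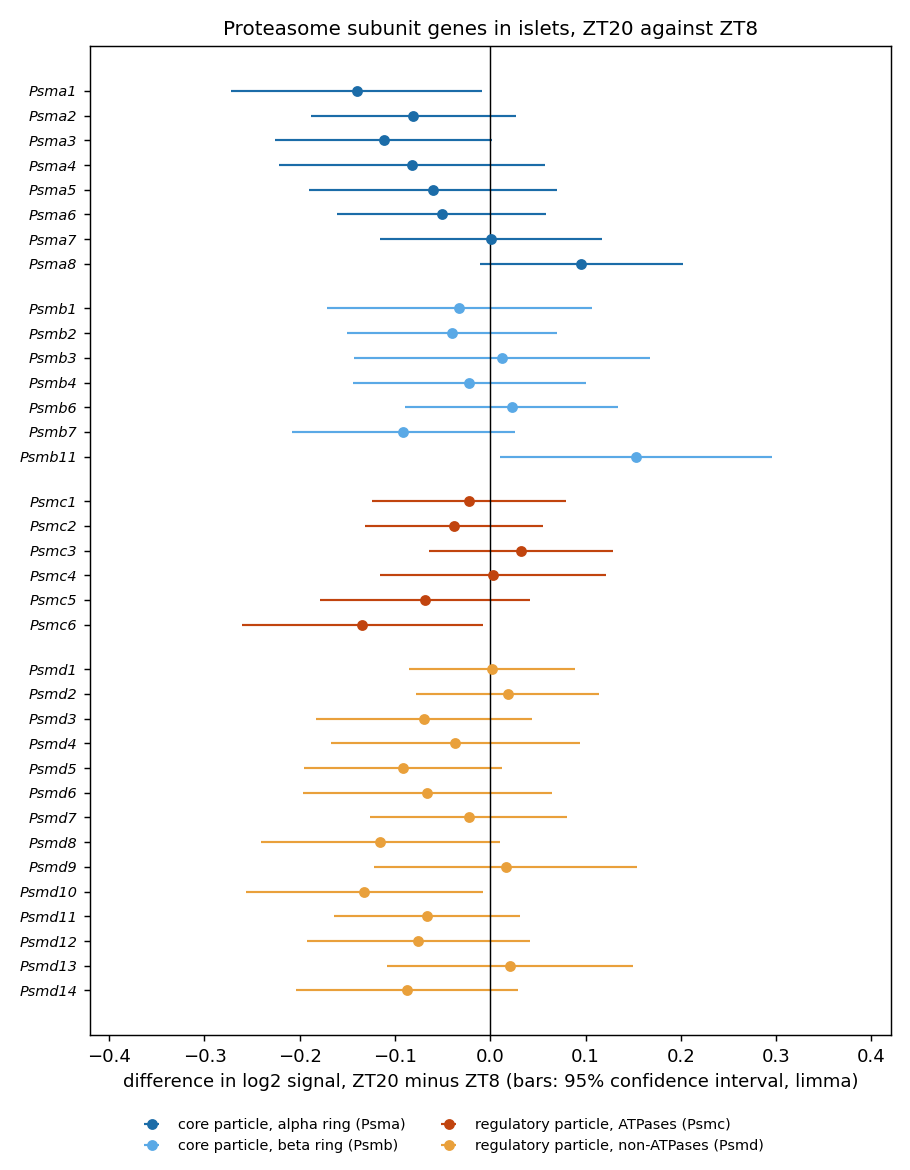
Difference in log2 signal, ZT20 minus ZT8 (horizontal axis), for each of the 35 proteasome subunit genes (vertical axis), coloured by ring or role, where points are limma estimates from 5 arrays per group and bars are 95% confidence intervals. Of the 35 points 24 lie left of 0 as deposited (9 of 35 after quantile normalization), the range is -0.14 to 0.15, and 31 bars cross 0.

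Among the alpha subunits, 6 of 8 lay below 0, with a median of -0.07 that was 0.02 after quantile normalization. Psma1, an alpha ring subunit, had log2 signals of 10.34, 10.17, 10.45, 10.22 and 10.19 on the ZT20 arrays and 10.31, 10.40, 10.43, 10.48 and 10.43 on the ZT8 arrays. ZT20 replicates 2, 4 and 5 lay below every ZT8 array, while replicates 1 and 3 lay within the ZT8 range. Its mean was 10.27 ± 0.12 at ZT20 and 10.41 ± 0.06 at ZT8 (SD, n = 5 each), a difference of -0.14 with a standard error of 0.06 and an adjusted p of 0.248 (limma), and the difference was -0.05 after quantile normalization. Psma2, Psma3, Psma4, Psma5 and Psma6, which complete most of the same ring, had differences between -0.11 for Psma3 and -0.05 for Psma6. Psma7, the subunit that Psma8 replaces in the testis, differed by 0.00 between the groups, with an interval from -0.12 to 0.12.

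Psma8, a germ cell form of an alpha subunit, is known from spermatogenesis and its signal was near the background here. It read 4.58, 4.56, 4.61, 4.52 and 4.73 on the ZT20 arrays and 4.51, 4.55, 4.48, 4.50 and 4.47 on the ZT8 arrays. ZT20 replicate 4 lay inside the ZT8 range and the other 4 ZT20 arrays lay above it. The difference was 0.10 with a standard error of 0.05 and an adjusted p of 0.315 (limma), and the two-sided exact permutation p, 0.0159, was the lowest of the 35 genes, where 0.00794 is the smallest that 5 against 5 arrays can give. Its mean lay above 13 of the 23 background control rows of the array, and those control rows averaged 4.27 ± 0.04 at ZT20 and 4.14 ± 0.04 at ZT8 (SD, n = 5 each). The difference was 0.04 with centred arrays and 0.03 after quantile normalization. The part of this background shift in the result was not tested.

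The beta subunits had a median difference of -0.02, with 4 of 7 below 0, and of 0.08 after quantile normalization. Psmb6, the catalytic subunit that cuts after acidic residues, read 10.38, 10.40, 10.50, 10.41 and 10.32 on the ZT20 arrays and 10.30, 10.32, 10.41, 10.46 and 10.42 on the ZT8 arrays. Both groups covered nearly the same range. The means were 10.40 ± 0.07 at ZT20 and 10.38 ± 0.07 at ZT8 (SD, n = 5 each), the difference was 0.02 with an interval from -0.09 to 0.13. It changed sign to -0.03 with centred arrays and was 0.11 after quantile normalization. In that setting Psmb6, Psmc3 and Psmd2 were the 3 subunit genes higher at an unadjusted p under 0.05. The share of all rows at this cut is not given for that setting.

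Psmb7, the catalytic subunit that cuts after basic residues, read 10.34, 10.25, 10.36, 10.15 and 10.20 on the ZT20 arrays and 10.37, 10.37, 10.37, 10.39 and 10.24 on the ZT8 arrays. All ZT20 arrays lay below ZT8 replicates 1 to 4, and ZT8 replicate 5 lay among the ZT20 arrays. The means were 10.26 ± 0.09 at ZT20 and 10.35 ± 0.06 at ZT8 (SD, n = 5 each), with a difference of -0.09, a standard error of 0.05 and an adjusted p of 0.375 (limma). It was -0.14 with centred arrays and -0.005 after quantile normalization. The third catalytic gene, Psmb5, shares its row with a microRNA gene and was not analysed here. The structural beta subunits Psmb1, Psmb2, Psmb3 and Psmb4 differed by -0.03, -0.04, 0.01 and -0.02.

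Psmb11, a catalytic form known from the cortical epithelium of the thymus, had the highest difference of the 35 genes at a low signal. It read 5.57, 5.80, 5.54, 5.53 and 5.50 on the ZT20 arrays and 5.39, 5.44, 5.54, 5.48 and 5.32 on the ZT8 arrays. ZT20 replicate 2 stood above all other arrays, and ZT8 replicate 3 reached the level of the remaining ZT20 arrays. The difference was 0.15 with a standard error of 0.07 and an adjusted p of 0.246 (limma), and the mean lay above 15 of the 23 background control rows. The difference was 0.10 with centred arrays, 0.11 after quantile normalization, 0.09 with array weights and 0.10 without ZT20 replicate 2. The part of the background shift given for Psma8 was not tested for Psmb11 either. Without Psma8 and Psmb11, 24 of the other 33 genes lay below 0, with a median of -0.05 (0.03 after quantile normalization) and a highest difference of 0.03. These 33 genes lay above all 23 background control rows.

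The ATPases, which form the ring that unfolds substrates, had a median difference of -0.03 with 4 of 6 below 0, and of 0.05 after quantile normalization. Psmc6 read 9.65, 9.47, 9.79, 9.70 and 9.67 on the ZT20 arrays and 9.84, 9.76, 9.79, 9.79 and 9.75 on the ZT8 arrays. Only ZT20 replicate 3 reached the ZT8 range, and ZT20 replicate 2 was the lowest array. The means were 9.65 ± 0.12 at ZT20 and 9.79 ± 0.04 at ZT8 (SD, n = 5 each), with a difference of -0.13, a standard error of 0.06 and an adjusted p of 0.248 (limma), and the difference was -0.07 after quantile normalization.

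Psmc3, another ATPase of the same ring, had the highest difference among the 33 genes with a clear signal. Its values were 9.78, 9.74, 9.79, 9.79 and 9.69 on the ZT20 arrays and 9.74, 9.72, 9.76, 9.75 and 9.65 on the ZT8 arrays. The groups overlapped over most of their range. The difference was 0.03 with an interval from -0.06 to 0.13. It changed sign to -0.02 with centred arrays and was 0.10 after quantile normalization. Psmc1, Psmc2, Psmc4 and Psmc5 differed by -0.02, -0.04, 0.00 and -0.07.

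Among the 14 non-ATPase genes, 10 lay below 0 and the median difference was -0.07, a value of 0.01 after quantile normalization. Psmd10, an assembly chaperone of the ATPase ring that is also known as gankyrin, read 9.09, 9.10, 9.30, 9.14 and 9.22 on the ZT20 arrays and 9.19, 9.41, 9.29, 9.34 and 9.27 on the ZT8 arrays. ZT20 replicates 1, 2 and 4 lay below every ZT8 array, and replicates 3 and 5 lay inside the ZT8 range. The means were 9.17 ± 0.09 at ZT20 and 9.30 ± 0.08 at ZT8 (SD, n = 5 each), with a difference of -0.13, a standard error of 0.06 and an adjusted p of 0.247 (limma), and the difference was -0.08 after quantile normalization. The other chaperones that carry a subunit symbol, Psmd5 and Psmd9, had differences of -0.09 and 0.02. Without these 3 and without Psma8 and Psmb11, the median of the remaining 30 genes was -0.05, and 0.03 after quantile normalization.

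Of the subunits proper, the large scaffolds Psmd1 and Psmd2 differed by 0.00 and 0.02. The ubiquitin receptor Psmd4 differed by -0.04, and Psmd14, the enzyme that cuts ubiquitin chains off the substrate, by -0.09 with an interval from -0.20 to 0.03. The other lid subunits lay between -0.12 for Psmd8 and 0.02 for Psmd13, with Psmd3, Psmd6, Psmd11 and Psmd12 between -0.08 and -0.07 and Psmd7 at -0.02.

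**Figure D2:**
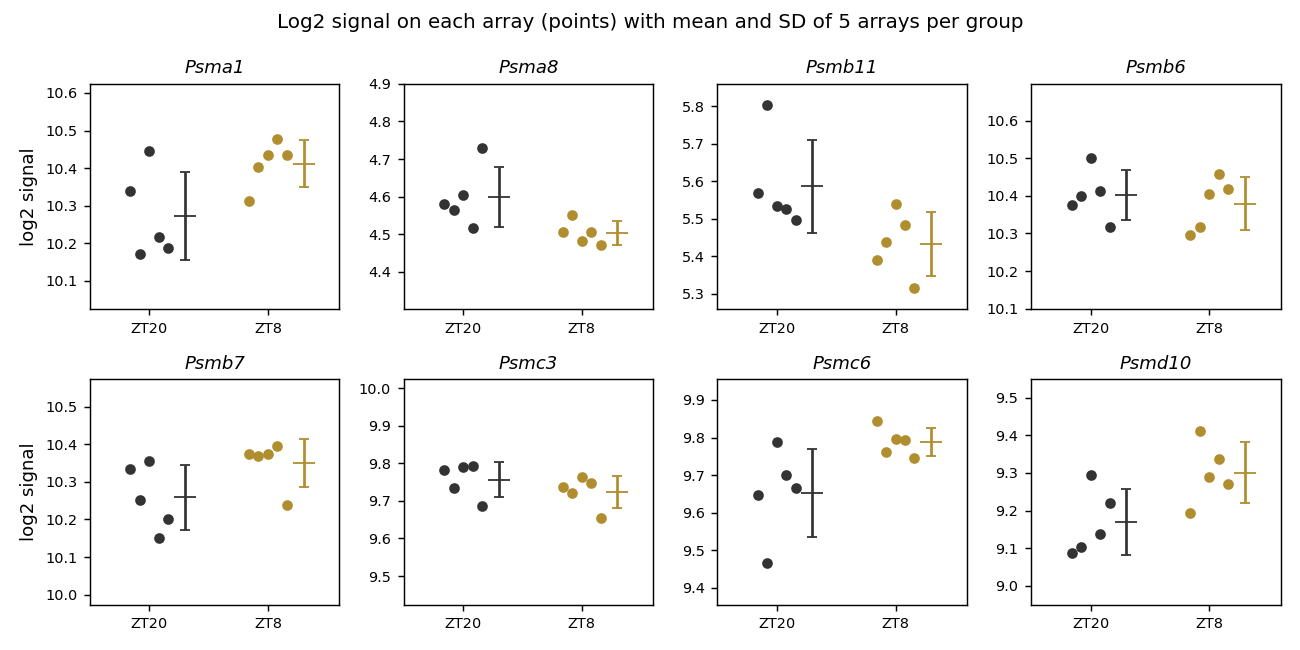
Log2 signal (vertical axis, each panel spanning the same width on the log2 scale) on each ZT20 array and each ZT8 array for 8 proteasome genes, with the mean and SD of 5 arrays beside the points. The 2 groups overlap in every panel, and for Psma1, Psmc6 and Psmd10 3 or 4 of the 5 ZT20 points sit below every ZT8 point.

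The core and the regulatory particle did not separate. The median difference was -0.04 for the 15 core genes and -0.05 for the 20 regulatory particle genes, with 10 of 15 and 14 of 20 below 0, and the core median minus the regulatory median was 0.01. After quantile normalization the medians were 0.03 and 0.02. Taken per array, as the mean deviation of the genes from their own means over 10 arrays, core minus regulatory particle was 0.009 ± 0.030 at ZT20 and -0.009 ± 0.032 at ZT8 (SD, n = 5 each), a gap smaller than either SD. The core median minus the regulatory median turned to -0.02 without ZT8 replicate 1, to -0.002 without ZT20 replicate 3, to -0.006 with array weights and to -0.013 without Psma8, Psmb11, Psmd5, Psmd9 and Psmd10.

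The subunit genes varied together from array to array, inside each group, and the rows above the median level as a whole varied over the same arrays. On ZT20 replicate 3, 34 of 35 genes lay above their own mean, while on ZT20 replicate 5 only 2 did, and on ZT20 replicates 1, 2 and 4 there were 13, 7 and 12. On the ZT8 arrays 8, 23, 31, 31 and 21 genes lay above their own mean in replicates 1 to 5. The array with most genes high was thus a ZT20 array, and ZT8 replicate 1 lay among the low ZT20 arrays. Of the rows above the median level, to which 33 of the 35 genes belong, 42.2%, 41.5%, 56.6%, 42.9% and 44.0% lay above their own mean on the ZT20 arrays and 43.6%, 54.7%, 58.0%, 65.0% and 56.5% on the ZT8 arrays. These shares were high and low on nearly the same arrays as the counts of subunit genes. Over all rows the share ran from 42.8% to 61.6% on the ZT20 arrays and from 37.7% to 51.8% on the ZT8 arrays.

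The mean deviation over the 35 genes was -0.02, -0.05, 0.08, -0.03 and -0.08 on the ZT20 arrays and -0.03, 0.02, 0.05, 0.06 and -0.01 on the ZT8 arrays. The group means were -0.02 ± 0.06 at ZT20 and 0.02 ± 0.04 at ZT8 (SD, n = 5 each), so that the gap between the groups was smaller than the spread between ZT20 arrays. Of the 33 genes with a clear signal, 15 had their highest value on ZT20 replicate 3, where 10.8% of the rows above the median level had theirs, and 13 had their lowest on ZT20 replicate 5, against 8.51% of such rows.

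The spread of the 33 genes inside the groups had a median SD of 0.075, against 0.101 for rows above the median level. After the mean over the 33 genes was taken off each array, it was 0.048 and had become smaller for 28 of 33 genes. That mean came from the same 33 genes, so a smaller spread is partly built in. The same step was not run on other rows, so this drop does not show that the genes vary together. Core and regulatory genes moved alike, with mean deviations of 0.10 and 0.07 on ZT20 replicate 3 and -0.09 and -0.08 on ZT20 replicate 5. On ZT8 replicate 1 the core genes averaged -0.07 and the regulatory particle genes -0.01. The median difference of the 35 genes was -0.07 without ZT20 replicate 3, with 31 below 0, -0.07 without ZT8 replicate 1 and -0.02 without ZT20 replicate 5.

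**Figure D3:**
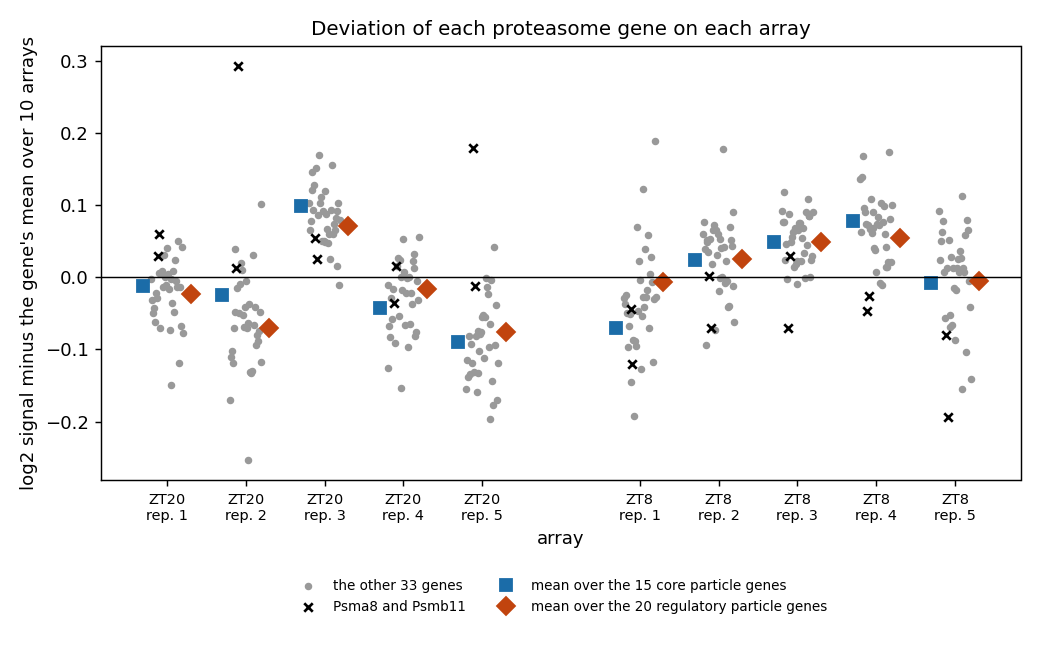
Log2 signal of each gene minus its own mean over 10 arrays (vertical axis) on the 5 ZT20 and 5 ZT8 arrays (horizontal axis), with grey points for 33 genes, crosses for Psma8 and Psmb11, squares for the mean of 15 core genes and diamonds for the mean of 20 regulatory particle genes. ZT20 replicate 3 stands highest and ZT20 replicate 5 lowest, and the squares and diamonds follow each other.

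The immunoproteasome genes, whose products replace the catalytic beta subunits and are known to be induced by interferon, lay above 0, with a median of 0.08 as deposited, 0.03 with centred arrays and 0.11 after quantile normalization, where the median of the constitutive subunits was above 0 too. Psmb9 read 7.29, 7.35, 7.52, 7.45 and 7.44 on the ZT20 arrays and 7.16, 7.32, 7.30, 7.37 and 7.34 on the ZT8 arrays, a difference of 0.12 with overlapping groups and an adjusted p of 0.305 (limma). Psmb8 differed by 0.07 and Psmb10 by 0.08, with adjusted p-values of 0.559 and 0.493 (limma). None of the 3 passed the test, and Psmb10 was at an unadjusted p under 0.05 after quantile normalization. Their difference from the constitutive subunits was not tested.

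Of the proteins that bind the regulatory particle without a Psm symbol, 5 of 6 listed genes were measured. All 5 lay lower at ZT20 at an unadjusted p under 0.05, against 8.37% of all rows. Of the 16407 rows above the median level, to which all 5 belong, 2373 were lower at this cut when fitted alone. The list was chosen with earlier results of these data known. The median difference of the 5 genes was -0.18, and none passed at an adjusted p under 0.05. The median was -0.11 after quantile normalization, where 2 of 5 were at an unadjusted p under 0.05. Without ZT8 replicate 2, 3 of 5 were so, against 4 or 5 without any other single array. Shares of all rows at this cut are not given for these settings. Txnl1, a thioredoxin-like protein bound to the regulatory particle, read 11.15, 10.88, 11.17, 10.94 and 11.10 on the ZT20 arrays and 11.30, 11.39, 11.35, 11.33 and 11.31 on the ZT8 arrays. The groups did not overlap. The means were 11.05 ± 0.13 at ZT20 and 11.34 ± 0.04 at ZT8 (SD, n = 5 each), with a difference of -0.29, a standard error of 0.06 and an adjusted p of 0.0543 (limma), and the adjusted p ran from 0.027 to 0.176 over 18 alternatives. The difference was -0.19 after quantile normalization.

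The deubiquitinases that trim chains at the regulatory particle, Uchl5 and Usp14, had differences of -0.19 and -0.18 with adjusted p-values of 0.162 and 0.178 (limma). Uchl5 read 9.95, 9.62, 9.85, 9.80 and 9.83 on the ZT20 arrays and 10.06, 9.95, 10.09, 9.92 and 9.95 on the ZT8 arrays, where ZT20 replicate 1 was inside the ZT8 range. Sem1, a small subunit of the lid, differed by -0.15, and Ecpas, a scaffold that binds proteasomes, by -0.13. Both overlapped between the groups.

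The nuclear activator Psme4 read 8.43, 8.21, 8.40, 8.29 and 8.32 on the ZT20 arrays and 8.60, 8.52, 8.49, 8.46 and 8.46 on the ZT8 arrays. The groups did not overlap, and the difference was -0.17 with an adjusted p of 0.129 (limma). Psme3, the gamma subunit of another nuclear activator, also had groups apart, with a difference of -0.06 that changed sign to 0.01 after quantile normalization and an adjusted p of 0.395 (limma). Psme1 and the inhibitor Psmf1 differed by 0.01 and -0.06. Of the assembly chaperones of the core and the regulatory particle without a subunit symbol, 5 of 6 were measured and 4 lay below 0, the lowest being Psmg4 at -0.12 and the highest Psmg3 at 0.09, a row dimmer than the brightest background control row, with a median of -0.04 that was 0.01 after quantile normalization.

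**Figure D4:**
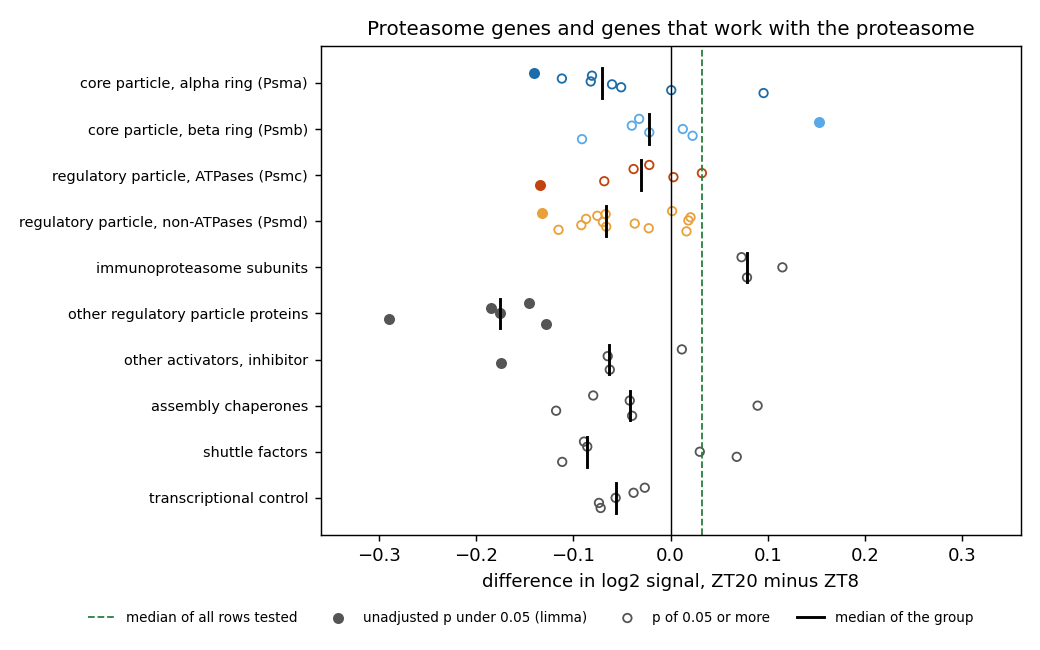
Difference in log2 signal, ZT20 minus ZT8 (horizontal axis), of each gene (points) in the 4 groups of constitutive subunits and in 6 lists of genes that work with the proteasome (rows), filled where the unadjusted limma p was under 0.05, with black bars for the group medians and a dashed line for the median of all rows tested. The other regulatory particle proteins lie between -0.29 and -0.13, all filled, while the 3 immunoproteasome genes lie above 0. After quantile normalization the medians of all 4 groups of constitutive subunits would lie right of 0.

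Cell makeup was read from marker genes on the same arrays. The array mean of 7 beta cell markers ran from 10.3 to 10.6 at ZT20 and from 10.2 to 10.7 at ZT8. With no other tissue on these arrays, this level does not check the islet label further. Of these 7 markers, 5 lay below 0, with a median difference of -0.05 that was -0.01 after quantile normalization. The 3 measured alpha cell markers lay below 0 with a median of -0.03, a value of 0.03 after quantile normalization. All 6 measured acinar markers, from the enzyme-making cells that surround islets, lay below 0 with a median of -0.20. Their array mean ran from 10.7 to 12.0 at ZT20 and from 10.6 to 12.0 at ZT8. ZT8 replicate 1, an array low in subunit genes, had the lowest beta marker mean, 10.20, and the highest acinar marker mean, 12.05. Other arrays did not follow this pairing. ZT20 replicate 5, the lowest in subunit genes, had a beta marker mean of 10.51 and an acinar marker mean of 10.68. On ZT20 replicate 3, the highest in subunit genes, these means were 10.60 and 10.90. The 5 stromal markers lay above 0 with a median of 0.16, the 5 endothelial markers with 0.07, and 5 of 6 macrophage and leukocyte markers lay above 0 with 0.11. With centred arrays, 1 of 5 stromal and 1 of 5 endothelial markers lay below 0. The part of these cells in the proteasome values was not tested.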

How the data were processed

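Total RNA from 10 islet samples was labelled with the Affymetrix WT Pico kit and hybridised to 1 one-colour array each. The deposited values are log2 signals per transcript row, which the authors normalized by GCRMA according to a heading of the study's supplement, with Affymetrix Expression Console named in the submitters' processing notes without a version. The background step subtracts a modelled signal, so values of dim rows depend on it. The array's rows rest on a genome build not given in the sources used here. Values ran from 1.66 to 13.7, and depth does not apply: the number of arrays limits the precision.

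Of 65956 transcript rows, 32814 carry at least 1 gene symbol in the annotation of the array, and all of these were fitted as deposited with limma 3.58.1 (lmFit and eBayes, R 4.3.3, two-sided), ZT20 minus ZT8, with Benjamini-Hochberg adjustment over these rows and a threshold of 0.05. For single genes, an exact two-sided permutation test over the 10 arrays was run beside limma. No gene was averaged over rows, since each of the 35 has 1 row. The fit was also run on simulated data with independent noise for each row. Those data lack shifts shared by many genes on an array, so they do not check the fit under such shifts. Python 3.11.15 was used for tables (pandas 2.3.3, scipy 1.17.1, with numpy 2.4.6) and for figures (matplotlib 3.10.9).

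The genes and lists were chosen with earlier results of these data known. Named with all array values are the catalytic subunits, the 3 largest differences in each direction, the ATPase and non-ATPase with the lowest unadjusted p, Psma8, Psmb11 and genes with 1 array apart. Of the other lists, the 2 genes with the lowest unadjusted p and the immunoproteasome genes are named. Sem1, Usp14, Ecpas and a few other list genes were named after their values were seen. Alternatives were centring of each array on its median, all transcript rows, quantile normalization, a trended and robust prior, array weights, a filter for rows above the median level, the methods' t-test for unequal variances, the replicate number as a block and each array left out. The median and count of the other regulatory particle proteins were added to these later.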

Additional observations from a re-analysis of the deposited data

Results flagged for a closer look

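Of 70 comparisons of 1 gene in 1 group of 5 arrays, 2 had an array far from the others, its gap to the nearest array being over 0.71 of the group's whole range. Chance gives such a gap in a share of about 0.05 of groups. For Psmb11, ZT20 replicate 2 was the highest at 5.80, against 5.57 for the next ZT20 array, a gap of 0.764 of the range. For Psmb7, ZT8 replicate 5 was the lowest at 10.24, against 10.37 for the next ZT8 array, a gap of 0.842 of the range.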

How the results depend on the processing

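No proteasome subunit gene was called at an adjusted p under 0.05 (limma, or the methods' t-test with Benjamini-Hochberg adjustment) under any of the alternatives run. The lowest adjusted p was 0.128, for Psma1 without ZT20 replicate 3. Counts at an unadjusted p under 0.05 in this section stand without the share of all rows under the same setting, so they have no background. With each array centred on its median, 8 genes were lower and 0 higher at an unadjusted p under 0.05, and the median difference was -0.092. After quantile normalization 0 were lower and 3 higher, and the median turned to 0.028. With the methods' t-test and with only rows above the median level, 0 were higher, in the second case because Psma8 and Psmb11 lie under that level. With 1 array left out, 0 to 4 genes were lower and 0 to 2 higher at an unadjusted p under 0.05, with 0 lower without ZT20 replicate 2 or without ZT8 replicate 2, 3 or 4. Core minus regulatory particle then ran from -0.021 to 0.022. Psmb6 ran from -0.0024 without ZT20 replicate 3 to 0.044, and was -0.030 with centred arrays, where Psmc3 was -0.020. After quantile normalization Psme3 was 0.010 and Vcp 0.021. Of 447 alternatives for 25 named genes, these 5 reversed and 437 kept their direction and side. In the other 5, Txnl1 passed the threshold, with adjusted p-values of 0.027 with array weights, 0.041 with centred arrays, 0.035 with rows above the median level, 0.0305 with a trended prior and 0.041 without ZT20 replicate 1 (limma). The cause of these changes was not tested. The all-row fit, trended prior, t-test, replicate block and level filter leave a gene's difference as it is, so they could not reverse it. The tally covers only the named genes, many of them named for a large difference or a low p, so it does not stand for all subunit genes. Of all 35, 24 lay below 0 as deposited, 33 with centred arrays and 9 after quantile normalization.

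Over all rows, 186 lower and 58 higher calls became 492 and 52 with centred arrays, 42 lower and 13 higher after quantile normalization, 467 calls in all with rows above the median level, 516 with a trended prior, 830 with array weights, 51 with the replicate block, 2 with the methods' t-test and 1 over all transcript rows. With 1 array left out there were 1 to 427. With the replicate block, 4 proteasome genes were lower and 1 higher at an unadjusted p under 0.05, and the median was -0.04. Same-numbered arrays deviated with correlations of 0.315, 0.283, -0.128, -0.122 and 0.352, and numbers 1, 2 and 5 had their own number as the best match. Since not every pair was over 0.1 and the labels give no shared litter, batch or day, the numbers were not used to pair samples, and whether some pairs share a source was not tested.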

Other observations

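Genes that control the proteasome or bring it substrates differed by small amounts. All 5 measured genes for the transcriptional control of the subunits lay below 0 with a median of -0.06 (3 of 5 after quantile normalization) and none was at an unadjusted p under 0.05 (limma): Nfe2l1, the activator of subunit genes, differed by -0.03, its relatives Nfe2l2 and Nfe2l3 by -0.04 and -0.06, Ngly1, which removes the sugars of Nfe2l1, by -0.07, and Vcp, which extracts it from the membrane, by -0.07, a value of 0.02 after quantile normalization. Nfe2l3, whose difference is that median of -0.06, read 6.88 on ZT8 replicate 1 and 5.99 to 6.29 on the other ZT8 arrays. It read 6.00 to 6.35 at ZT20, so the sign of its difference rests on that array. Uba6, an enzyme that activates ubiquitin, differed by -0.16 with an adjusted p of 0.305 (limma).

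Of the shuttle factors, which carry ubiquitinated proteins to the proteasome, 5 of 6 were measured and 3 lay below 0, with a median of -0.09 as deposited and -0.02 after quantile normalization. Ubqln1 read 9.58, 9.43, 9.58, 9.58 and 9.51 on the ZT20 arrays and 9.59, 9.63, 9.65, 9.60 and 9.63 on the ZT8 arrays, groups that did not overlap, with a difference of -0.09 (-0.02 after quantile normalization) and an adjusted p of 0.331 (limma). Rad23b differed by -0.09, while Ubqln2 and Ubqln4 differed by 0.03 and 0.07. Ddi1 had a difference of -0.11 at a low signal, 4.87 at ZT20 and 4.98 at ZT8, and like Nfe2l3 and Psmb6-ps it was dimmer than the brightest background control row, whose mean was 7.07. The rows of the pseudogenes Psmb6-ps and Psmb5-ps, which can share signal with their parent genes, differed by -0.12 and -0.09.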
